A study of Homo sapiens with 8 samples.

Results

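The 7 genes described here encode enzymes that break down tryptophan along the kynurenine route or handle nicotinamide and NAD. They are IDO1, TDO2, KYNU, KMO, QPRT, NAMPT and NNMT, taken by symbol from a table of 59023 named genes. The table holds RNA-sequencing counts of A498, an established cell line of clear cell renal cell carcinoma with a mutated VHL gene. The 4 untreated libraries are called replicates 1 to 4, and the 4 libraries from cells given IL1β at 30 ng/ml for 4 h are called replicates 5 to 8. All cultures are of this single line, in the same serum-containing medium. The labels do not say whether the libraries of a group came from separate cultures or days, so the p-values measure the spread between these libraries. The study speaks of experimental pairs, but the labels do not tell which libraries form one.

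In the kynurenine pathway, IDO1 or TDO2 opens the ring of tryptophan, and the product is hydrolysed to kynurenine. KMO hydroxylates kynurenine and KYNU cleaves it or its hydroxylated form, after which HAAO and QPRT complete the path towards NAD. NAMPT instead recycles nicotinamide into NAD and limits the rate of this salvage, while NNMT methylates nicotinamide and so takes it out of the cycle. IDO1 is best known as an enzyme induced by interferon-γ in myeloid and epithelial cells, and TDO2 as an enzyme of the liver.

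KYNU was the only member that rose at an adjusted p under 0.05. The 250 bases upstream of its RefSeq start are shown because the result turns on this gene. They lie on the plus strand of GRCh38.p14 at chr2:142877414-142877663, and capitals mark every match to the motifs searched on both strands.
KYNU: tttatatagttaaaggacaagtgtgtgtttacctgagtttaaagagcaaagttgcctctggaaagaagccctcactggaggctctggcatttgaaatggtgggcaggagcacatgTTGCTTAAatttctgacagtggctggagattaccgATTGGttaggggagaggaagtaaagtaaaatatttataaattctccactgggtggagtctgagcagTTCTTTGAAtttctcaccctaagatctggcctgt
The first run matches TTGCNNAA, the letters of a C/EBP site, which 9.05% of 35116 RefSeq promoter windows of this length hold. The second is CCAAT read on the other strand, held by 32% of windows. The third matches TTCNNNGAA, the letters of a STAT site, on both strands at once and is held by 6.57% of windows. The kappaB motif, which 9.96% of windows hold, the interferon response motif, GAAA repeated after a gap of 2 bases (3.02%), and the AP-1 letters TGANTCA (6.57%) had no match in this window. Of the 7 members, 5 have an entry in the RefSeq promoter table. KMO held 2 CCAAT matches that overlap each other, TDO2 held 3 CCAAT matches and 1 TGANTCA match that overlaps the first of them, and neither NAMPT nor QPRT held any of the 6 motifs. A match is a description of the letters only.

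The libraries held 15409093 to 27040505 counts in named genes, so that 1 count stood for 0.0370 to 0.0649 CPM, the share of a library's counts multiplied up to a common total. Levels are CPM after TMM scaling of library sizes, and on this scale 3 counts stood for 0.110 to 0.220 CPM. Tests are edgeR's quasi-likelihood tests with Benjamini-Hochberg adjustment, and SE denotes the standard error on the log2 scale. The cells expressed the renal gene PAX8, the cytokeratin genes KRT8 and KRT18, and VIM. The hypoxia-induced CA9 stood at 0.403 to 5.80 CPM, and NDUFA4L2 and EPCAM were near 0. Of the treatment check genes, NFKBIZ (adjusted p = 0.00566) and CXCL8 (adjusted p = 0.0318) rose, the latter call being kept in 3 of the 8 fits with 1 library left out (adjusted p = 0.0174 to 0.118 over all 8), and NFKBIA and TNFAIP3 had log2 fold changes of 1.78 and 2.61 without passing. 2 libraries, untreated replicate 1 and IL1β replicate 5, lay far from the rest, at -59.5 and -102 on a first principal component where the others lay between 18.8 and 37.2, for a reason that was not tested. Fibroblast markers (COL1A1, COL3A1, DCN and 5 others, none at 0 counts over the series) summed to 1376 CPM in untreated replicate 4 and 490.0 CPM in IL1β replicate 6, against 47.8 to 155 CPM elsewhere. In such bulk RNA, fewer cells of a type and less RNA per cell cannot be told apart. Whether the A498 cells themselves made the RNA of these markers was not tested. Leukocyte markers summed to 2.23 to 22.2 CPM in every library, with CD3E and MS4A1 at 0.

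KYNU encodes kynureninase, the enzyme that cleaves kynurenine to anthranilic acid and its hydroxylated form to hydroxyanthranilic acid. In GENCODE 44 (hg38) it spans bases 142877657 to 143055833 of chromosome 2. Its level was 167, 269, 165 and 205 CPM in untreated replicates 1 to 4 and 412, 484, 460.1 and 444 CPM in IL1β replicates 5 to 8. Every IL1β library lay above every untreated one, including IL1β replicate 5. The mean rose from 201 ± 48.5 to 450.3 ± 30.2 CPM (SD, n = 4 each), 2.24-fold, or a log2 fold change of 1.16 (SE 0.19, edgeR adjusted p = 0.0241). Leaving out untreated replicate 1, 3 or 4, or IL1β replicate 6, 7 or 8, gave adjusted p-values of 0.0553 to 0.108, and without untreated replicate 2 or IL1β replicate 5 it was 0.0377 or 0.0238. With libraries scaled by size only it was 0.0686, a scaling that shifts the median over all genes from -0.02 to -0.18 on the log2 scale. The annotated pseudogenes KYNUP1, KYNUP2 and KYNUP3 had no count in any library.

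**Figure D1:**
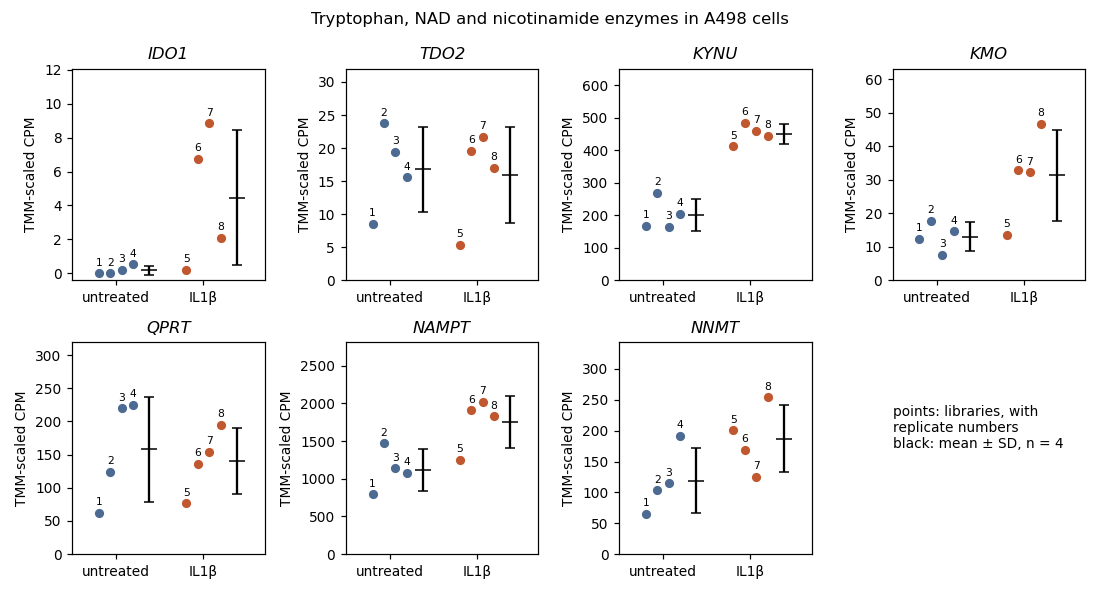
TMM-scaled CPM (vertical axes, each starting at or just below 0) of the 7 genes in untreated and IL1β libraries. Points are libraries labelled with their replicate number, and black marks are the mean ± SD of 4. KYNU is the one gene whose groups do not overlap, with 165 to 269 CPM untreated and 412 to 484 CPM with IL1β.

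KMO encodes the monooxygenase that makes hydroxykynurenine, and lies on chromosome 1 from 241532134 to 241595642. It stood at 12.3, 17.8, 7.52 and 14.6 CPM in untreated replicates 1 to 4 and at 13.6, 32.9, 32.2 and 46.6 CPM in IL1β replicates 5 to 8. IL1β replicate 5 lay within the untreated range, and the other IL1β libraries lay above it. The log2 fold change was 1.26 (SE 0.38, edgeR adjusted p = 0.213), so KMO did not pass. It passed without IL1β replicate 5 (log2 fold change 1.51, adjusted p = 0.042) and in DESeq2 (adjusted p = 0.0417). OPN3, which overlaps KMO on the other strand, averaged 62.3 ± 9.45 CPM untreated and 64.5 ± 9.45 CPM with IL1β, a log2 fold change of 0.05.

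IDO1, the indoleamine dioxygenase at the entry of the pathway, lies on chromosome 8 from 39902275 to 39928790. It was nearly silent without IL1β, with 0, 0, 5 and 11 counts in untreated replicates 1 to 4. With IL1β it had 3, 157, 183 and 31 counts in replicates 5 to 8. On the CPM scale these are 0, 0, 0.210 and 0.548 CPM untreated and 0.220, 6.73, 8.83 and 2.08 CPM with IL1β. IL1β replicate 5 lay below untreated replicate 4, so the groups overlap. The log2 fold change of 4.56 had a standard error of 1.24 and did not pass (edgeR adjusted p = 0.158). IDO1 passed without IL1β replicate 5 (log2 fold change 4.96, adjusted p = 0.048). Its paralog IDO2 had no count in any library, where 3 counts would have been 0.110 to 0.220 CPM.

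TDO2, the tryptophan dioxygenase, lies on chromosome 4 from 155854738 to 155920406. It stood at 8.51, 23.7, 19.4 and 15.6 CPM in untreated replicates 1 to 4 and at 5.36, 19.6, 21.7 and 17.0 CPM in IL1β replicates 5 to 8. The lowest library of each group was the one that stood apart, untreated replicate 1 and IL1β replicate 5, and the groups overlap. The log2 fold change was -0.07 (SE 0.43, edgeR adjusted p = 0.978). Its sign turned without IL1β replicate 5 (0.21), untreated replicate 2 (0.14) or untreated replicate 3 (0.003), each time still within the standard error.

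QPRT encodes the phosphoribosyltransferase that turns quinolinic acid into a precursor of NAD, and lies on chromosome 16 from 29663279 to 29698699. It stood at 62.4, 124, 220 and 225 CPM in untreated replicates 1 to 4 and at 76.4, 136, 154 and 195 CPM in IL1β replicates 5 to 8. As for TDO2, untreated replicate 1 and IL1β replicate 5 were the lowest of their groups. The log2 fold change was -0.17 (SE 0.41, edgeR adjusted p = 0.942). Leaving out untreated replicate 3, untreated replicate 4 or IL1β replicate 5 gave 0.03 to 0.06.

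NAMPT, the phosphoribosyltransferase of nicotinamide salvage, lies on the minus strand of chromosome 7 from 106248298 to 106285966 and had the highest CPM of the 7 genes. It stood at 795, 1470, 1137 and 1082 CPM in untreated replicates 1 to 4 and at 1250, 1907, 2021 and 1829 CPM in IL1β replicates 5 to 8. The IL1β replicates 6 to 8 lay above every untreated library, and replicate 5 lay below untreated replicate 2. The means were 1121 ± 277 and 1752 ± 344 CPM, a log2 fold change of 0.64 (SE 0.22, edgeR adjusted p = 0.308). Counts were also assigned to NAMPTP1, a processed pseudogene of NAMPT on chromosome 10, equal to 1.60% to 2.20% of those of NAMPT in each library. Reads of the 2 copies can be assigned to either, which could account for all counts of NAMPTP1. How reads matching both were treated was not examined, so the share of NAMPT reads affected is not known.

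NNMT encodes nicotinamide N-methyltransferase, and lies on chromosome 11 from 114257787 to 114313536. It stood at 65.6, 103, 115 and 191 CPM in untreated replicates 1 to 4 and at 201, 169, 125 and 254 CPM in IL1β replicates 5 to 8. The groups overlap, since untreated replicate 4 lay above IL1β replicates 6 and 7. The log2 fold change was 0.66 (SE 0.33, edgeR adjusted p = 0.534). Untreated replicate 4 was also the library with the highest fibroblast markers (1376 CPM), whose part in the level of NNMT was not tested. Without it the log2 fold change of NNMT was 0.99 (adjusted p = 0.231).

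Of the 7 members, 1 rose and 0 fell, where 0.929% of the 15062 genes tested rose and 0.0598% fell. At an unadjusted p under 0.05 in edgeR 4 members were higher (IDO1, KYNU, KMO and NAMPT), against 6.23% of all genes, and 0 were lower, against 4.55%. Groups that did not overlap were found for 1 member with IL1β higher, beside 4.6% of all genes, and for 0 with IL1β lower, beside 3.41%. The log2 fold change was above 0 for 5 members, beside 47.8% of all genes, and at least 1 for 3 members (IDO1, KYNU and KMO), beside 3.47%. In DESeq2 2 rose and 0 fell, where 2.81% of all genes rose and 109 of 15062 fell. In limma-voom 1 rose and 0 fell, where 1.21% of all genes rose and 0.0797% fell. The median log2 fold change of the members was 0.66, beside -0.02 over all genes tested. Leaving out untreated replicate 1 together with IL1β replicate 5, 4 members rose, where 2.5% of 15127 genes did. These were IDO1 (log2 fold change 4.51, adjusted p = 0.0295), KYNU (1.14, adjusted p = 0.0146), KMO (1.51, adjusted p = 0.039) and NAMPT (0.66, adjusted p = 0.0408), all from edgeR. NNMT (0.44, adjusted p = 0.633), TDO2 (0.01, adjusted p = 0.991) and QPRT (-0.21, adjusted p = 0.801) did not pass there. Both libraries were left out because they stood apart in these same counts. IL1β replicate 5 was also the lowest treated library for IDO1, KMO and NAMPT. The calls of these genes therefore describe the remaining libraries and are no separate support. The members were chosen with earlier results of these data known, so the count describes these genes and is no test of the group.

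**Figure D2:**
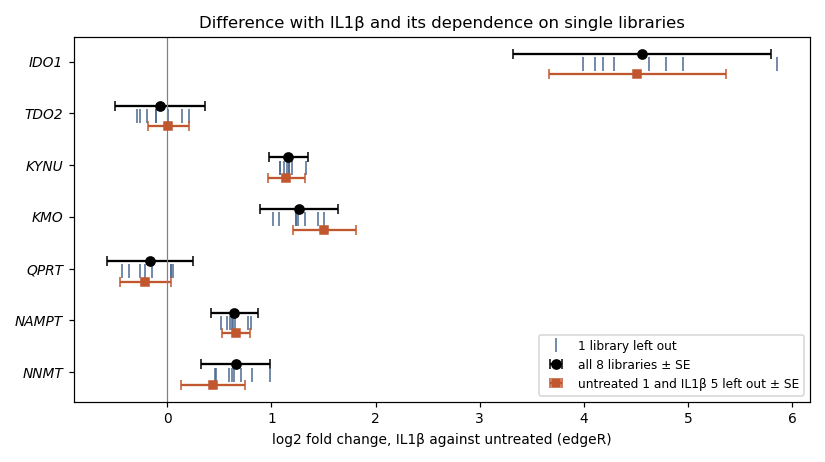
Log2 fold change with IL1β (horizontal axis) for each of the 7 genes from edgeR, with all 8 libraries (black, ± standard error), with 1 library left out (blue ticks) and with untreated replicate 1 and IL1β replicate 5 left out (orange, ± standard error). KYNU stays between 1.08 and 1.33 with 1 library left out, and IDO1 spans 3.99 to 5.85, while TDO2 and QPRT lie on both sides of 0.

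The members differed in how they varied over the 8 libraries. After each log2 CPM profile was centred on its own mean, KYNU and NAMPT were the closest pair, with a root mean square difference of 0.33. KYNU and KMO followed at 0.47, and TDO2 and QPRT stood at 0.51. IDO1 was 1.86 or more from every other member. Untreated replicate 1 was below the mean for all 7 genes. IL1β replicate 5 was below it for IDO1, TDO2, KMO, QPRT and NAMPT and above it for KYNU (0.47) and NNMT (0.50).

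**Figure D3:**
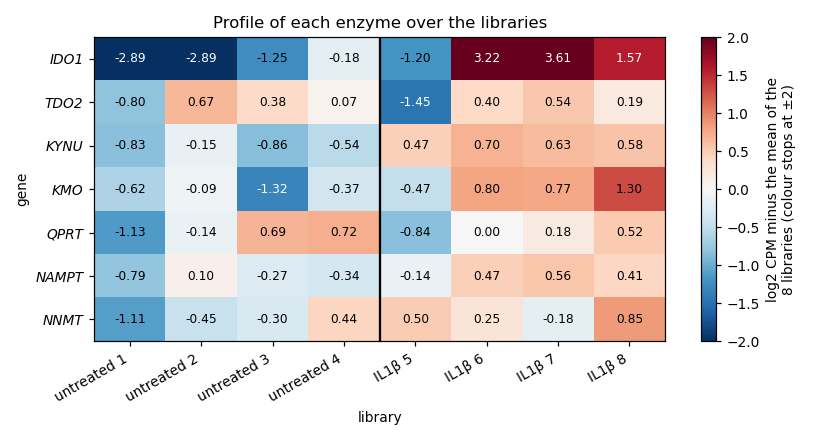
Log2 CPM of each gene (rows) in each library (columns) after subtraction of that gene's mean over the 8 libraries, printed in the cells and coloured up to ±2. KYNU is positive in all IL1β libraries (0.47 to 0.70), whereas TDO2 and QPRT are lowest in untreated replicate 1 and IL1β replicate 5.

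Among 13565 other genes averaging at least 1 CPM, the profiles nearest to KYNU were those of HIVEP2, a zinc finger transcription factor (0.14), CD83, an immunoglobulin superfamily protein of activated cells (0.18), and SRGN, the proteoglycan serglycin (0.19). HIVEP2 itself was at 33.8 to 43.5 CPM untreated and 77.2 to 89.3 CPM with IL1β (log2 fold change 1.10, edgeR adjusted p = 0.0115). It was picked for its likeness to KYNU over these libraries, so its p-value is no separate support. Nearest to NAMPT was its pseudogene NAMPTP1 (0.13), then DCLRE1B (0.13) and SMURF1 (0.15). Nearest to KMO were ZC3H12C, NAB1 and FSD1L (0.20 to 0.23). Nearest to IDO1 were STAT5A, CX3CL1 and BATF2, which were still 0.99 to 1.10 away. TDO2 lay next to CSE1L, TOPBP1 and POLA1 (0.07 to 0.10), of which TOPBP1 and POLA1 act in DNA replication. QPRT lay next to ARSE, IDH2 and ECSIT (0.08 to 0.19), and NNMT next to DAPK3, ZYX and KDM6B (all at 0.19). The distances describe these 8 libraries and carry no test.

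Per kilobase of annotated exon, the order of levels in untreated cells was NAMPT (47.5 ± 11.7 CPM per kb), NNMT (45.7 ± 20.3), QPRT (42.9 ± 21.4), KYNU (11.5 ± 2.78), TDO2 (3.19 ± 1.23), KMO (2.19 ± 0.727) and IDO1 (0.0543 ± 0.0742, SD, n = 4). On this length NAMPT, NNMT and QPRT did not differ beyond their spread, and neither did TDO2 and KMO. With IL1β the levels were 74.3 ± 14.6 for NAMPT, 72.0 ± 21.0 for NNMT, 38.2 ± 13.4 for QPRT and 25.8 ± 1.73 for KYNU. They were 5.27 ± 2.28 for KMO, 3.02 ± 1.38 for TDO2 and 1.28 ± 1.15 CPM per kb for IDO1, so that on this length KMO and TDO2 changed places within their spread. The exon union of NAMPT is 23.6 kb long and that of KYNU 17.4 kb. With the MANE Select transcript, of 4.36 kb for NAMPT, NAMPT stood at 257 ± 63.5 CPM per kb untreated, clear of QPRT (71.7 ± 35.8) and NNMT (59.0 ± 26.2). On that length TDO2 also lay above KMO in both groups, at 9.89 ± 3.80 against 2.60 ± 0.861 CPM per kb in the untreated libraries, where their ranges did not overlap. With IL1β the means were 9.36 ± 4.29 and 6.24 ± 2.70 CPM per kb, and the ranges overlapped.

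Around the members, the list of 13 kynurenine pathway genes had 9 that could be tested, of which KYNU rose and none fell, with a median log2 fold change of -0.01. Over all genes tested, 0.929% rose and 0.0598% fell. HAAO, which acts between KYNU and QPRT, had no count in any library, where 3 counts would have been 0.110 to 0.220 CPM. ACMSD, which diverts the intermediate away from QPRT, had 20 counts over the 8 libraries. The aminotransferase genes KYAT3 and GOT2, which convert kynurenine to kynurenic acid, stood at 19.5 ± 1.88 and 123 ± 12.7 CPM untreated and 20.4 ± 2.55 and 117 ± 12.0 CPM with IL1β. The third tested aminotransferase gene, AADAT, stood at 8.58 ± 1.85 and 5.99 ± 0.768 CPM (log2 fold change -0.51, edgeR adjusted p = 0.468). HAAO, ACMSD, KYAT3, GOT2 and AADAT were named after their values were seen.

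Of 10 tested genes of NAD salvage and completion 0 rose and 0 fell in edgeR, DESeq2 and limma-voom, and at an unadjusted p under 0.05 in edgeR NAMPT was higher and NADK2 lower. NADK2, the mitochondrial NAD kinase, went from 32.2 ± 4.59 to 23.7 ± 3.72 CPM (log2 fold change -0.44, SE 0.18, edgeR adjusted p = 0.41). Among the 19 tested NAD consumers, 1 rose and 0 fell, beside 0.929% and 0.0598% of all genes, with a median log2 fold change of 0.16. At an unadjusted p under 0.05 in edgeR 5 were higher and 0 lower, beside 6.23% and 4.55% of all genes. The riser was PARP14, an ADP-ribosyltransferase of interferon responses, at 76.5, 62.4, 47.6 and 61.8 CPM in untreated replicates 1 to 4 and 89.9, 201, 174 and 179 CPM in IL1β replicates 5 to 8. Groups did not overlap for 2 tested consumers with IL1β higher, PARP14 and PARP8, and for 1 with IL1β lower, TNKS. Over all genes these shares were 4.6% and 3.41%. The log2 fold change of PARP14 was 1.38 (SE 0.26, edgeR adjusted p = 0.0484). Its adjusted p was 0.0626 to 0.162 without any 1 library but IL1β replicate 5, without which it was 0.00484. The other 4 at an unadjusted p under 0.05 were the family members PARP8, PARP9, PARP10 and PARP12. Their log2 fold changes were 0.61 to 1.20, with edgeR adjusted p-values of 0.0813 to 0.44. These 4 and TNKS were named after their values were seen.

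NNMT was the gene with the smallest p among 10 tested genes of nicotinamide methylation and the methyl donor cycle, where 0 rose and 0 fell in edgeR, DESeq2 and limma-voom and none had an unadjusted p under 0.05 in edgeR. MTR, the methionine synthase, followed with a log2 fold change of -0.32 (adjusted p = 0.724). The 8 tested genes of tryptophan use and transport gave the same counts, 0 and 0, with 0 at an unadjusted p under 0.05. WARS1, the tryptophanyl-tRNA synthetase, stood at 186 ± 80.9 and 282 ± 72.4 CPM (adjusted p = 0.547), and SLC7A5, the large neutral amino acid transporter, at 915 ± 259 and 1165 ± 321 CPM (adjusted p = 0.717). Of 8 tested genes of the aryl hydrocarbon receptor, which kynurenine can bind, 0 rose and 0 fell in edgeR and limma-voom. In DESeq2 1 rose, beside 2.81% of all genes. That gene, AHR, stood at 29.6, 45.4, 34.2 and 38.7 CPM untreated and 45.3, 72.6, 76.3 and 78.0 CPM with IL1β (log2 fold change 0.88, SE 0.22, edgeR adjusted p = 0.122, and 0.0275 without IL1β replicate 5). Its target CYP1A1 stood at 0.883 ± 0.580 and 2.05 ± 1.93 CPM (log2 fold change 1.18, edgeR adjusted p = 0.611). Without IL1β replicate 5, at 4.92 CPM, the log2 fold change of CYP1A1 was 0.29.

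A list of interferon-γ signalling around IDO1 joined regulators of IDO1 with GBP1 and CXCL10, which are induced by interferon-γ and do not regulate IDO1. Of its 10 tested genes 3 rose and 0 fell, beside 0.929% and 0.0598% of all genes, with a median log2 fold change of 1.29. GBP1 (1.86, edgeR adjusted p = 0.15) and CXCL10 (4.54, edgeR adjusted p = 0.0721) did not pass, and the median of the other 8 tested genes was 0.84. IFNGR1, a chain of the interferon-γ receptor, averaged 54.7 ± 10.6 CPM untreated and rose to 158 ± 17.2 CPM (log2 fold change 1.53, SE 0.19, edgeR adjusted p = 0.00828). IRF1, the transcription factor that activates IDO1 downstream of interferon-γ, stood at 56.0, 45.1, 44.9 and 97.9 CPM in untreated replicates 1 to 4 and 287, 220, 218 and 283 CPM in IL1β replicates 5 to 8. It rose by a log2 fold change of 2.05 (SE 0.28, edgeR adjusted p = 0.0115, and 0.0503 without IL1β replicate 8). IL1β replicate 5, which lay far from most libraries, had the lowest IDO1 of the treated libraries and the highest IRF1, at 287 CPM against 283 CPM in replicate 8. Whether IRF1 and IDO1 were linked in these cells was not tested. SOCS3, an inhibitor of cytokine signaling, rose from 48.5 ± 12.7 to 131 ± 36.5 CPM (log2 fold change 1.44, SE 0.28, edgeR adjusted p = 0.0473), a call that was kept only without IL1β replicate 7 when 1 library was left out (0.0422, and 0.0523 to 0.162 for the others). IFNG, the gene of interferon-γ itself, had no count in any library.

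**Figure D4:**
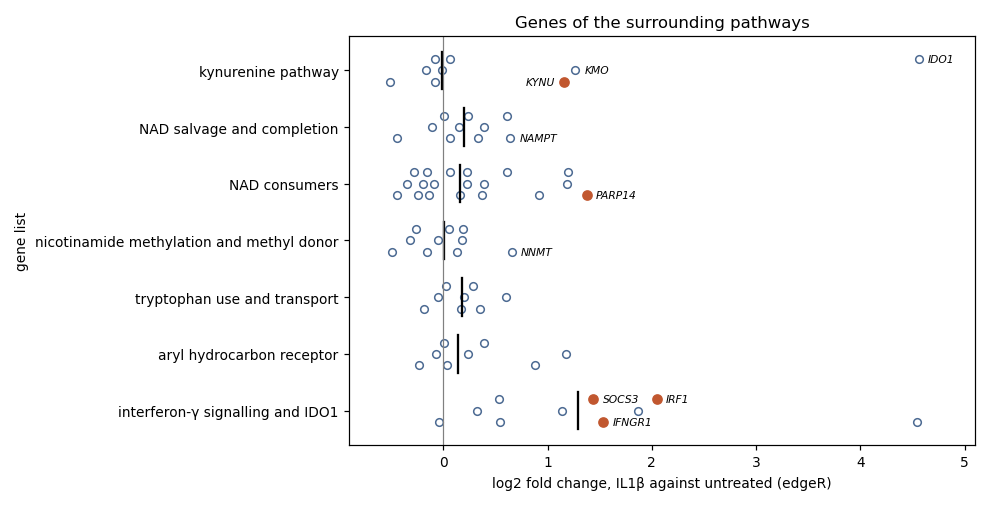
Log2 fold change with IL1β (horizontal axis) of every tested gene of 7 lists (rows). Filled orange points passed at an adjusted p under 0.05, open points did not, and the black bar is the list's median. The interferon-γ signalling list, GBP1 and CXCL10 included, has a median of 1.29 and 3 genes that passed, while the medians of the other lists lie between -0.01 and 0.19.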

How the data were processed

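The authors made stranded TruSeq libraries from total RNA, mapped the reads after trimming to hg38 (STAR 2.5.3a), and deposited raw counts per gene from featureCounts. For featureCounts, the annotation, strand setting and version are not given in the sources that were used. Of 59050 entries, 27 whose symbol had become a date (0.197% to 0.236% of the counts) were left out. In R 4.3.3, genes were kept by filterByExpr, and edgeR 4.0.16 (TMM, quasi-likelihood F test on the condition alone, Benjamini-Hochberg adjustment over all 15062 genes tested) gave the log2 fold changes. Standard errors are the log2 fold change over the square root of F, and "rose" or "fell" means an adjusted p under 0.05. The code was tested on simulated data. Positions and lengths are those of GENCODE 44, and promoter windows those of RefSeq on GRCh38.p14. Profiles used log2 CPM with a prior count of 2. Alternatives were RLE, upper-quartile or size-only scaling, DESeq2 1.42.0, limma-voom (limma 3.58.1), no filter, a filter of 1 CPM in 4 libraries, each library left out, untreated replicate 1 and IL1β replicate 5 left out, and other gene lengths, of which the MANE Select length was added after the data were seen. From each pathway list the genes that passed were named, otherwise the 2 with the smallest p, and for each member the 3 nearest profiles. The members and lists were chosen with earlier results of these data known. SIRT6, on the list of NAD consumers, was not analysed here.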

Additional observations from a re-analysis of the deposited data

Results flagged for a closer look

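Of 42 sets of 4 libraries examined (the genes named from the lists, the 7 members and the treatment check genes, in each group), 6 held a library far from the other 3, where chance gives about 1 in 20, and none was of a member. In IL1β replicate 5, MTR was lowest at 28.8 CPM (next 54.1), AHR was lowest at 45.3 CPM (next 72.6) and CYP1A1 was highest at 4.92 CPM (next 1.40). IFNGR1 was lowest in untreated replicate 3 at 39.1 CPM (next 58.4). CXCL8 was lowest in IL1β replicate 7 at 3574 CPM (next 4629), and TNFAIP3 was highest in IL1β replicate 8 at 477 CPM (next 317).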

How the results depend on the processing

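No paired analysis was possible because the labels number the untreated cultures 1 to 4 and the treated ones 5 to 8 and do not say which form the pairs of the study. With 1 library left out, log2 fold changes ran from 3.99 to 5.85 for IDO1, -0.30 to 0.21 for TDO2, 1.08 to 1.33 for KYNU, 1.01 to 1.51 for KMO and -0.43 to 0.056 for QPRT, and 0 to 3 members and 0 to 3 kynurenine pathway genes rose, as did 0 to 3 NAD consumers, 0 to 1 genes of the aryl hydrocarbon receptor and 1 to 3 genes of interferon-γ signalling. Over all genes 38 of 15498 (without IL1β replicate 8) to 218 of 15471 (without IL1β replicate 5) rose there, and the counts of 3 for members, kynurenine pathway genes and NAD consumers came without IL1β replicate 5. Leaving out untreated replicate 1 together with IL1β replicate 5, the values were 4.51 for IDO1, 0.00999 for TDO2, 1.51 for KMO and 0.66 for NAMPT. There 4 members, 3 kynurenine pathway genes, 1 salvage gene, 3 NAD consumers and 1 gene of the aryl hydrocarbon receptor rose, as did 378 of all 15127 genes. The 3 kynurenine pathway genes (IDO1, KYNU and KMO) and the salvage gene (NAMPT) are these same 4 members. In the other settings too, the kynurenine pathway genes that rose were members, so the 2 counts are not to be added. Without a filter IDO1 had 4.57 (adjusted p = 0.033), and 2 members, 2 kynurenine pathway genes, 2 NAD consumers and 5 genes of interferon-γ signalling rose, as did 230 of all 31930 genes. A filter of 1 CPM in 4 libraries removed IDO1, so it has no value there. In DESeq2 KMO had 1.26, and 2 members, 2 kynurenine pathway genes, 2 NAD consumers, 1 gene of the aryl hydrocarbon receptor and 6 genes of interferon-γ signalling rose. Over all genes 423 of 15062 rose there. With library size only KYNU had 1.005, and 0 members, 0 kynurenine pathway genes and 0 NAD consumers rose, the last also with upper-quartile factors and in limma-voom. Per kilobase of the longest transcript, TDO2 stood at 5.35 untreated and 5.07 with IL1β, KYNU at 29.7 with IL1β, QPRT at 71.7 and 63.9, and NAMPT at 148 and 232 CPM per kb. With the MANE Select length TDO2 stood at 9.89 and 9.36, KYNU at 29.7 with IL1β, QPRT at 71.7 and 63.9, and NAMPT at 257 and 402. Apart from the lengths themselves, the cause of these differences between settings was not tested.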
